A study of Mus musculus with 20 samples.

Results

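The tissue beside a chronic stroke was compared with the matching tissue of the opposite hemisphere in mice treated with 2-hydroxypropyl-β-cyclodextrin (HPBCD). The comparison rests on 10 of the 20 RNA-Seq libraries of the series, chosen by their sample titles: 5 peri-infarct libraries and 5 contralateral libraries from wild-type mice labelled HPBCD, and the replicate number pairs the regions of 1 animal. All groups came from aged (18 months) male C57BL/6J mice with no added allele, which underwent DH stroke, in which a distal branch of the middle cerebral artery is closed for good and the mouse then breathes little oxygen, and were killed 7 weeks later. HPBCD, a ring of sugar units that entraps cholesterol and other lipophilic molecules, was injected subcutaneously at 4 g/kg, 3 times a week for 6 weeks, from 1 week after stroke, and the 10 vehicle libraries, used here only to set the HPBCD values beside them, came from mice injected with sterile PBS. The infarct itself was cut away before the peri-infarct tissue was taken, so the groups model the border of an old cortical lesion and its mirror region, as bulk tissue. No transcript reports the injection itself, so the treatment label could not be checked against the counts.

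A cortical infarct leaves behind a core that is cleared by phagocytes and walled off by a scar of reactive astrocytes and fibroblasts. Phagocytes that take up dead cells and myelin handle the lipid in lysosomes and pass cholesterol on to apolipoproteins, and the sterol sensor of a cell slows the making of new cholesterol when sterol is plentiful. Neurons next to the lesion can be lost or can lower the transcripts of their synapses and channels, and in bulk tissue fewer cells of a type and less RNA per cell cannot be told apart.

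The contralateral library of animal 4 stood apart from the other 19 libraries. It had the fewest gene counts (14445021, against 15033441 to 22171627), 9.5% of its read pairs fell outside any gene (4.39% to 5.86% in the others), and 8.03% were ambiguous (3.94% to 4.16%). Its level of the small nuclear RNA Rn7sk was 79.0 CPM (counts scaled to library size with TMM factors over the 20 libraries), against at most 4.29 CPM elsewhere. The interferon-induced gene Trim30a was at 1194 CPM there, against 1.14 to 18.9 CPM in the other 19. Each result below was therefore also computed without animal 4, and the number of genes of a list that were called is given without that animal where it moved by over 1.5 times. The 3 counts taken as the floor equalled 0.126 to 0.228 CPM in the 20 libraries, which covers counting error only. The brain origin of every library was visible in the summed level of 12 neuronal markers, which reached at least 4201 CPM in each of the 10 HPBCD libraries.

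Of 16047 genes tested with edgeR's quasi-likelihood test with the animal as a block, 8860 (55.2%) differed between the regions at a Benjamini-Hochberg adjusted p under 0.05, the threshold behind "rose" and "fell" throughout. There were 4878 genes that rose (30.4%) and 3982 that fell (24.8%). The rises were the larger changes: 2518 genes rose and 764 fell by at least 2-fold (20.5% of those tested), 1128 rose and 92 fell by at least 4-fold (7.6%), 482 rose and 9 fell by at least 8-fold, and 210 rose by at least 16-fold. The median log2 fold change was 1.04 among genes that rose, -0.57 among those that fell and 0.03 over all genes tested. All 5 animals moved in the same direction for 8357 (94.3%) of the called genes. In 6825 genes (42.5% of those tested), the 5 libraries of one region lay entirely above the 5 of the other, 3894 of them (24.3%) with the peri-infarct side higher and 2931 (18.3%) with it lower. Animal 4 had the widest difference, with 4669 genes at least 2-fold apart, and animal 2 the smallest, with 2606, and without animal 4 the count was 8604. Protein-coding genes were called at 58.0% of 14358, long noncoding genes at 36.9% of 1004, and among the latter 236 fell and 134 rose.

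**Figure D1:**
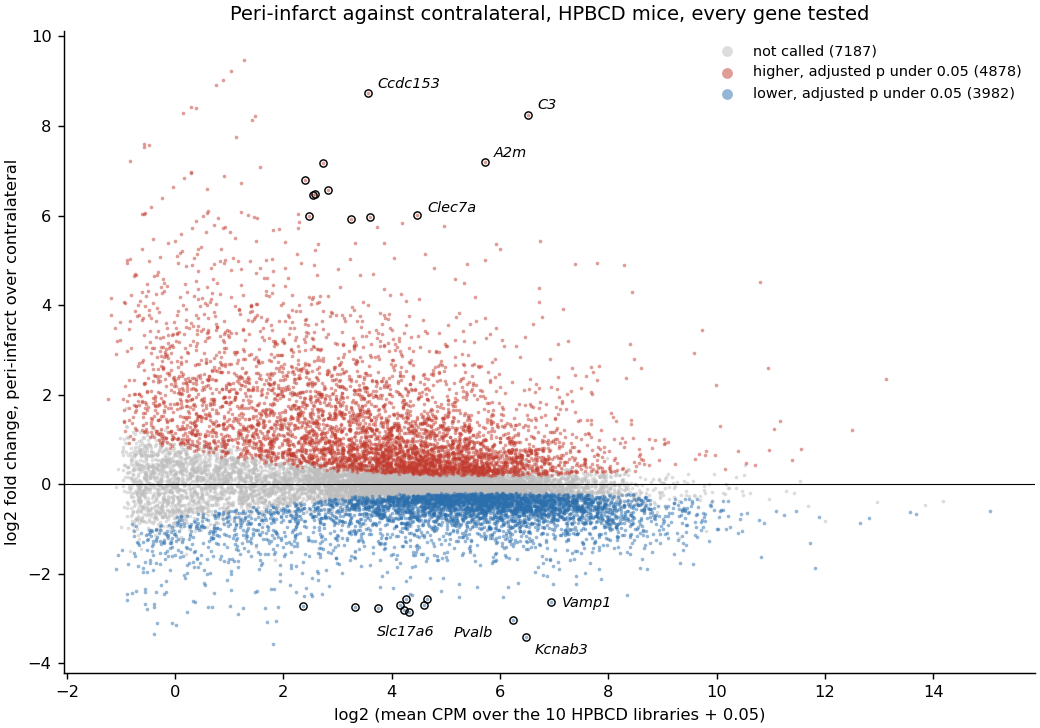
Each point is 1 of the 16047 genes tested in HPBCD mice, with the log2 mean CPM of the 10 libraries on the x axis and the log2 fold change of peri-infarct over contralateral tissue on the y axis. Red points (4878) were higher and blue points (3982) lower at an adjusted p under 0.05, and grey points were not called. Black rings mark the 24 genes that rose or fell most within the naming limits, from Ccdc153 at 8.74 to Kcnab3 at -3.42. Besides a called change, these limits ask for a minimum mean level, the same direction in every animal and no overlap between regions. Over all called genes the log2 fold change ran from -3.56 to 9.46.

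Genes of 67 lists of cell types, brain regions, pathways and families (982 genes tested) were followed by their counts, and the first 4 members tested of each list, together with members that went against their list, were named by rule, while all other members were named after their values had been seen. Each count below can be read against the 30.4% of all genes that rose and the 24.8% that fell, and 24.3% and 18.3% for groups that do not overlap. The filter on low counts asked for 0.533 CPM (10 counts in a library of median size, before TMM scaling) in at least 5 libraries, and 1134 of the 16047 genes reached that level in all 5 peri-infarct libraries but not in all 5 contralateral ones. For such a gene, passing the filter favours a higher peri-infarct level, and 863 of them were called higher. Counts, medians and non-overlap of lists that hold them, and the fold changes and p-values of such genes, are therefore a description only. Such genes were 3 of 12 reactive astrocyte, 3 of 13 complement, 3 of 7 border macrophage, 4 of 18 matrix protease, 3 of 10 cell cycle, 2 of 7 MHC class II, 1 of 2 neutrophil and 1 of 4 red blood cell genes tested. The lipid-laden phagocyte, chemokine, lymphocyte, cilia, choroid plexus and potassium channel lists are split below, and every other list had at most 3 such genes.

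Complement genes rose together, and C3 had the second largest of the 12 rises named by rule. C3 (chr17:57203970-57228136, minus strand, GRCm38), the central protein of the complement cascade, was at 0.0499, 0.151, 2.76, 0.3804 and 0.226 CPM in the contralateral libraries of animals 1 to 5 and at 171, 105, 208, 285 and 147 CPM in their peri-infarct libraries. Every peri-infarct library was far above the highest contralateral library, which was that of animal 3. The log2 fold change was 8.25 ± 0.51 (SE, adjusted p = 6.31e-06). C3 passed the filter through the peri-infarct side only. All 13 of 13 complement genes tested rose, with a median log2 fold change of 2.801, and none of them overlapped between the regions. The first component chains C1qa, C1qb and C1qc rose by 2.801, 2.64 and 2.61, the protease C1ra by 1.14, and C4b, the other thioester protein of the cascade, by 4.89 ± 0.19. The protease inhibitor A2m, a relative of C3, was at 0.151 to 1.38 CPM contralaterally and 63.6 to 173 CPM beside the infarct, and its log2 fold change was 7.197 ± 0.32 (SE, adjusted p = 2.64e-06).

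Reactive astrocyte markers rose in 12 of 12 cases, with a median of 4.17. Gfap, the intermediate filament of astrocytes, stood at 144, 114, 165, 167 and 151 CPM on the contralateral side and at 3336, 2494, 2904, 4763 and 3649.6 CPM on the peri-infarct side of animals 1 to 5. The regions were well apart, and animal 4 was the highest on both sides. Its log2 fold change was 4.51 ± 0.15 (SE, adjusted p = 1.01e-06). The other members named by rule were Vim, an intermediate filament of immature and reactive glia, at 4.28 ± 0.23, the protease inhibitor Serpina3n at 4.92 ± 0.19, and Lcn2, an iron-binding secreted protein, at 5.82 ± 0.34. Lcn2 varied widely among the animals beside the infarct, from 7.197 CPM in animal 2 to 63.9 CPM in animal 3. General astrocyte genes moved much less: 6 of 12 rose, 1 fell (2 without animal 4) and the median was 0.35. The water channel Aqp4 rose by 2.37 ± 0.12 and the glutamate transporter Slc1a3 by 0.65, the main glutamate transporter Slc1a2 was at -0.199 ± 0.12 (SE, adjusted p = 0.189) and the marker enzyme Aldh1l1 at 0.22 ± 0.09 (SE, adjusted p = 0.0607), neither of which passed, and Fgfr3, a growth factor receptor of astrocytes, fell by 0.28 on the log2 scale.

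Phagocyte genes rose as a block. All 14 of 14 genes of disease-associated or lipid-laden microglia and macrophages rose (median 4.03; 6 of 14 passed the filter through the peri-infarct side only), and so did 10 of 10 homeostatic microglia genes (median 1.23). Clec7a, a receptor for fungal glucans that marks lipid-laden microglia, was at 0.349, 0.202, 2.48, 0.533 and 0.169 CPM contralaterally and 31.96, 24.4, 47.7, 68.3 and 43.7 CPM beside the infarct in animals 1 to 5. The lowest peri-infarct library was well above the highest contralateral one, again that of animal 3. The change was 6.003 ± 0.41 (SE, adjusted p = 8.48e-06), the largest of the 14. Clec7a was one of the 6 that passed the filter through the peri-infarct side only. Trem2, the lipid-sensing receptor of microglia, rose by 2.64 ± 0.198, its adaptor Tyrobp by 2.66 ± 0.14, the lipoprotein Apoe by 2.34 ± 0.21 and osteopontin, Spp1, by 4.06 ± 0.26. Among homeostatic genes, the purine receptor P2ry12 rose by 0.58 ± 0.08 and Tmem119 by 1.23 ± 0.097, smaller steps than the median of the lipid-laden list, while the fractalkine receptor Cx3cr1 rose by 1.72. Fc receptors and their signalling partners rose in 8 of 8 cases, among them Fcer1g at 2.62, Fcgr1 at 2.098, Fcgr2b at 2.97 and Fcgr3 at 2.09. Perivascular and border macrophage genes rose in 6 of 7 cases but from low levels, with summed levels of 3.93 to 14.2 CPM contralaterally and 20.1 to 45.3 CPM beside the infarct. The mannose receptor Mrc1 rose by 1.81, the hemoglobin scavenger receptor Cd163 by 1.24, Lyve1 by 1.25 and F13a1 by 1.52.

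Lysosome genes rose in 20 of 20 cases with a median of 1.495, and none of the 20 overlapped between the regions. The membrane proteins Lamp1 and Lamp2 rose by 0.95 and 1.202, the proteases Ctsb and Ctsd by 0.74 and 2.22, and Atp6v0d2, a proton pump subunit of phagocytes and osteoclasts, by 4.81 ± 0.55. Npc1 and Npc2, which carry cholesterol out of the lysosome, rose by 0.73 ± 0.08 and 1.48 ± 0.13, and Lipa, which splits cholesterol esters there, by 1.51 ± 0.11.

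Cholesterol genes went in opposite directions by role. Of the genes that make cholesterol or are driven by its sensor SREBP, 18 of 22 fell and none rose (median -0.604), and of the genes for cholesterol efflux or driven by LXR, 11 of 13 rose and 2 fell (median 1.502). Hmgcs1, a synthase early in the pathway, was at 402, 455, 432, 404 and 426 CPM in the contralateral libraries and at 264, 253, 234, 213 and 233 CPM in the peri-infarct libraries of animals 1 to 5. The ranges did not overlap, and animal 4 was the lowest beside the infarct. It changed by -0.83 ± 0.09 (SE, adjusted p = 8.66e-05). The kinases Mvk and Pmvk fell by 0.32 and 0.56 on the log2 scale, and Insig1, the sterol-regulated brake on the pathway, changed by -1.16 ± 0.09 (SE, adjusted p = 1.22e-05). The efflux pump Abca1 was at 24.4, 30.6, 37.2, 30.2 and 24.98 CPM contralaterally and 169, 150.4, 231, 344 and 173 CPM beside the infarct, a change of 2.802 ± 0.16 (SE, adjusted p = 5.19e-06). No peri-infarct library came near the contralateral range, and animal 4 was again the highest. The pump Abcg1 rose by 0.601 ± 0.09, the apolipoprotein Apoc1 by 3.77 ± 0.41 and Ch25h, which makes a hydroxylated cholesterol, by 3.42 ± 0.52. The members that fell were Nr1h2, one of the LXR genes, at -0.22 ± 0.08, and Cyp46a1, the neuronal cholesterol hydroxylase, at -0.53 ± 0.104. Neuronal, oligodendrocyte and phagocyte markers moved in the same libraries, and their part in the sterol result was not tested.

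Of 18 genes of lipid uptake, storage and hydrolysis, 12 rose and 3 fell. Among those that rose, Cd36, Msr1 and Lrp2 passed the filter through the peri-infarct side only. The scavenger receptors Cd36 and Msr1 rose by 4.01 ± 0.33 and 4.19 ± 0.295, and the lipase Lpl by 2.09 ± 0.25, whereas the lipoprotein receptor Scarb1 was at 0.27 ± 0.104 (SE, adjusted p = 0.0509). Lrp2, the endocytic receptor megalin, had no count in any contralateral HPBCD library and 2.65 to 5.67 CPM beside the infarct, where the mean was at least 17.4-fold and the lowest library at least 11.6-fold higher than the floor of 3 counts per library. The genes that fell were Pparg, a nuclear receptor for fatty acids, at -1.36 ± 0.17, the monoglyceride lipase Mgll at -0.73 ± 0.09 and the ester hydrolase Nceh1 at -0.58 ± 0.11.

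Antigen presentation rose in both classes. For MHC class I and its peptide loading, 10 of 10 genes rose (median 1.86), led by rule with H2-K1 at 2.23, H2-D1 at 2.15, B2m at 1.44 and the peptide pump Tap1 at 1.797. For MHC class II, 7 of 7 rose (median 3.204), and the 4 named were Cd74 at 3.58, H2-Aa at 3.58, H2-Ab1 at 3.48 and H2-Eb1 at 3.204, of which H2-Aa passed the filter through the peri-infarct side only. Class I and II genes are polymorphic and resemble one another, so reads may be split between relatives.

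Interferon-stimulated genes, which cells switch on through IRF factors, rose in 12 of 14 cases with a median of 1.55. Irf7 rose by 1.46 ± 0.25 and Irf9 by 1.24 ± 0.15, and Stat2 was at 0.198 ± 0.102 (SE, adjusted p = 0.129). Ifit1, which binds foreign RNA, was at 2.196, 2.82, 3.03, 2.66 and 3.78 CPM contralaterally and 7.07, 8.06, 11.2, 16.1 and 5.84 CPM beside the infarct in animals 1 to 5, without overlap and with animal 4 the highest. Its change was 1.65 ± 0.25 (SE, adjusted p = 5.47e-04). Trim30a could not be read in the full set: its contralateral levels were 2.05, 3.08, 1.93, 1194 and 3.89 CPM and its peri-infarct levels 8.496 to 18.95 CPM, for 0.99 ± 1.25 (SE, adjusted p = 0.5305), and without animal 4 it was at 2.10 (adjusted p = 4.94e-05). Without that animal, 13 of 14 rose.

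Since these genes moved together, the windows from 250 bases before to 50 after their starts, taken from RefSeq for GRCm38.p6, were searched for the core of the interferon response element, which is GAAA, any 2 bases and GAAA, on either strand. It was present in 8 of the 11 members with an entry (72.7%) and in 1079 of all 27025 genes with an entry (3.99%). The promoters of 3 members that rose are printed because they show the match at different distances from the start, with the matches in capitals. Isg15 (chr4:156200769-156201068, minus strand) and Oas1a (chr5:120907476-120907775, minus strand) carry overlapping matches in one run, and Ifit1 (chr19:34640639-34640938, plus strand) carries 2 separate ones. Isg15 rose by 1.33 ± 0.25 and Oas1a by 2.34 ± 0.36. Such a match is a description of the letters and not a bound site.
Isg15: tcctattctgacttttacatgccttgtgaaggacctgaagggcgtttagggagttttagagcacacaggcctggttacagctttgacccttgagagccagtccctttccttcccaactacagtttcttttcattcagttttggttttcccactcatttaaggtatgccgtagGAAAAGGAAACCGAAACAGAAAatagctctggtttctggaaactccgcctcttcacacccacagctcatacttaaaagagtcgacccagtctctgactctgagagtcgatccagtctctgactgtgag
Oas1a: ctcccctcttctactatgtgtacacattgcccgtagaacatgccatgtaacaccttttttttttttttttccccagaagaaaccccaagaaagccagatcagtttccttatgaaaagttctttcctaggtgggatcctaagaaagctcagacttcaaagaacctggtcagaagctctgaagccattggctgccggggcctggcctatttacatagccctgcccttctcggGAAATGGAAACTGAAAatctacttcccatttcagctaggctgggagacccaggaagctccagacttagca
Ifit1: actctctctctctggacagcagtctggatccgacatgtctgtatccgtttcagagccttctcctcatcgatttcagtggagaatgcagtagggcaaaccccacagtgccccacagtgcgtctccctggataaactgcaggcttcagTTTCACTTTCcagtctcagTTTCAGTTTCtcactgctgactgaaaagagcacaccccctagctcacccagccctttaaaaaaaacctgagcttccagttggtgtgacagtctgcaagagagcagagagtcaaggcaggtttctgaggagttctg

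The same search for the sterol element TCACNCCAC on either strand found it in 1 of the 16 sterol synthesis members with an entry (6.25%) and in 1.44% of all genes. That member was Hmgcs1 (chr13:119690101-119690400, plus strand), whose window is printed because it is the gene described above, with the match 137 bases before the start in capitals.
Hmgcs1: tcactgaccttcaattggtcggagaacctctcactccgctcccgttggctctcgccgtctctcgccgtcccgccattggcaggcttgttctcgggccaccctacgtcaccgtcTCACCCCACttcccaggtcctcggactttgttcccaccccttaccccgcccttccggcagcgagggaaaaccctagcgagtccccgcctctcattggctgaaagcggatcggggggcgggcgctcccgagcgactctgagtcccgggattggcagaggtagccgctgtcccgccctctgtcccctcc

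Chemokine genes rose in 15 of 17 cases and fell in 2. Of these, 10 of 17 passed the filter through the peri-infarct side only, and of the other 7, 5 rose and 2 fell. The monocyte attractant Ccl2 had 4 counts over the 5 contralateral libraries and 128 over the 5 peri-infarct libraries. That is a ratio of 26.4 with a 95% counting interval (exact) of 10.1 to 98.5. Here and below, such an interval covers counting error of the summed reads only and leaves out the pairing and the spread between animals. Ccl3 and Ccl5 rose by 3.98 and 3.79 and the B cell attractant Cxcl13 by 5.63 ± 0.54, and Ccl4 rose from at most 0.2496 CPM to at least 1.22 CPM. The receptor Cxcr4 was at 0.0499 to 0.758 CPM contralaterally and 10.6 to 29.6 CPM beside the infarct (5.38 ± 0.32). Cxcl14 and Cx3cl1, both made by neurons in cortex, fell, at -0.67 ± 0.08 and -0.65 ± 0.104. Toll-like receptor genes and their partners rose in 13 of 14 cases, with Tlr1 at 3.44, Tlr2 at 3.78, Tlr3 at 0.82 and Tlr4 at 2.66. TGF-beta genes rose in 9 of 12 cases, with the ligands Tgfb1, Tgfb2 and Tgfb3 at 2.17, 1.26 and 0.75 and the receptor Tgfbr1 at 1.68.

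Lymphocyte genes were low on the contralateral side, where T cell genes summed to 1.297 to 2.59 CPM and B and plasma cell genes to 7.95 to 13.2 CPM, and rose beside the infarct. All 5 of 5 T cell genes past the filter on low counts rose, and 7 more of the 12 listed did not pass it. Of the tested T cell genes 4 of 5 and of the B and plasma cell genes 5 of 7 passed through the peri-infarct side only. Cd3e, a chain of the T cell receptor complex, had 6 contralateral and 152 peri-infarct counts, a ratio of 20.9 (95% counting interval 9.398 to 57.9). Cd8a and Cd4, the coreceptors, rose by 4.25 ± 0.66 and 3.51 ± 0.32, and the adhesion receptor Cd2 had 5 contralateral and 84 peri-infarct counts, a ratio of 13.9 (95% counting interval 5.72 to 43.9). For B and plasma cells, 7 of 7 genes past the filter rose, with the receptor chains Cd79a and Cd79b at 2.87 ± 0.43 and 3.22 ± 0.56, the signalling linker Blnk at 1.001 ± 0.15 and the plasma cell proteoglycan Sdc1 at 2.496 ± 0.18. Igkc, the antibody kappa constant chain, reached 3.83, 56.2, 21.4, 10.98 and 12.9 CPM beside the infarct in animals 1 to 5 against 1.05, 0.655, 2.896, 0.3804 and 0.395 CPM contralaterally. Animal 2 was the highest and animal 1 the lowest beside the infarct.

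Blood genes varied among the animals. The summed level of 5 red blood cell genes was 11.8, 12.7, 17.4, 7.53 and 1.58 CPM in the contralateral and 9.13, 19.4, 40.5, 80.03 and 9.81 CPM in the peri-infarct libraries, and animals 4 and 3 were the highest on the peri-infarct side. The neutrophil list had 0.2496 to 2.28 CPM contralaterally and 1.81, 9.78, 5.52, 25.3 and 1.87 CPM beside the infarct, with animal 4 again the highest. The calprotectin subunits S100a8 and S100a9, the 2 neutrophil genes past the filter, rose by 2.14 ± 0.54 and 2.796 ± 0.49. Hba-a1, a hemoglobin chain, rose by 1.57 ± 0.48 (SE, adjusted p = 0.0215), the beta chain Hbb-bt by 2.19 ± 0.401 and the heme synthesis enzyme Alas2 by 0.94 ± 0.35, Hbb-bs was at 1.32 ± 0.51 (SE, adjusted p = 0.0529), and the regions overlapped for all 4 red blood cell genes tested. The number of red blood cell genes called was 3 of 4, and 1 without animal 3 or without animal 5. The part of blood in the lymphocyte and phagocyte results was not tested.

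**Figure D2:**
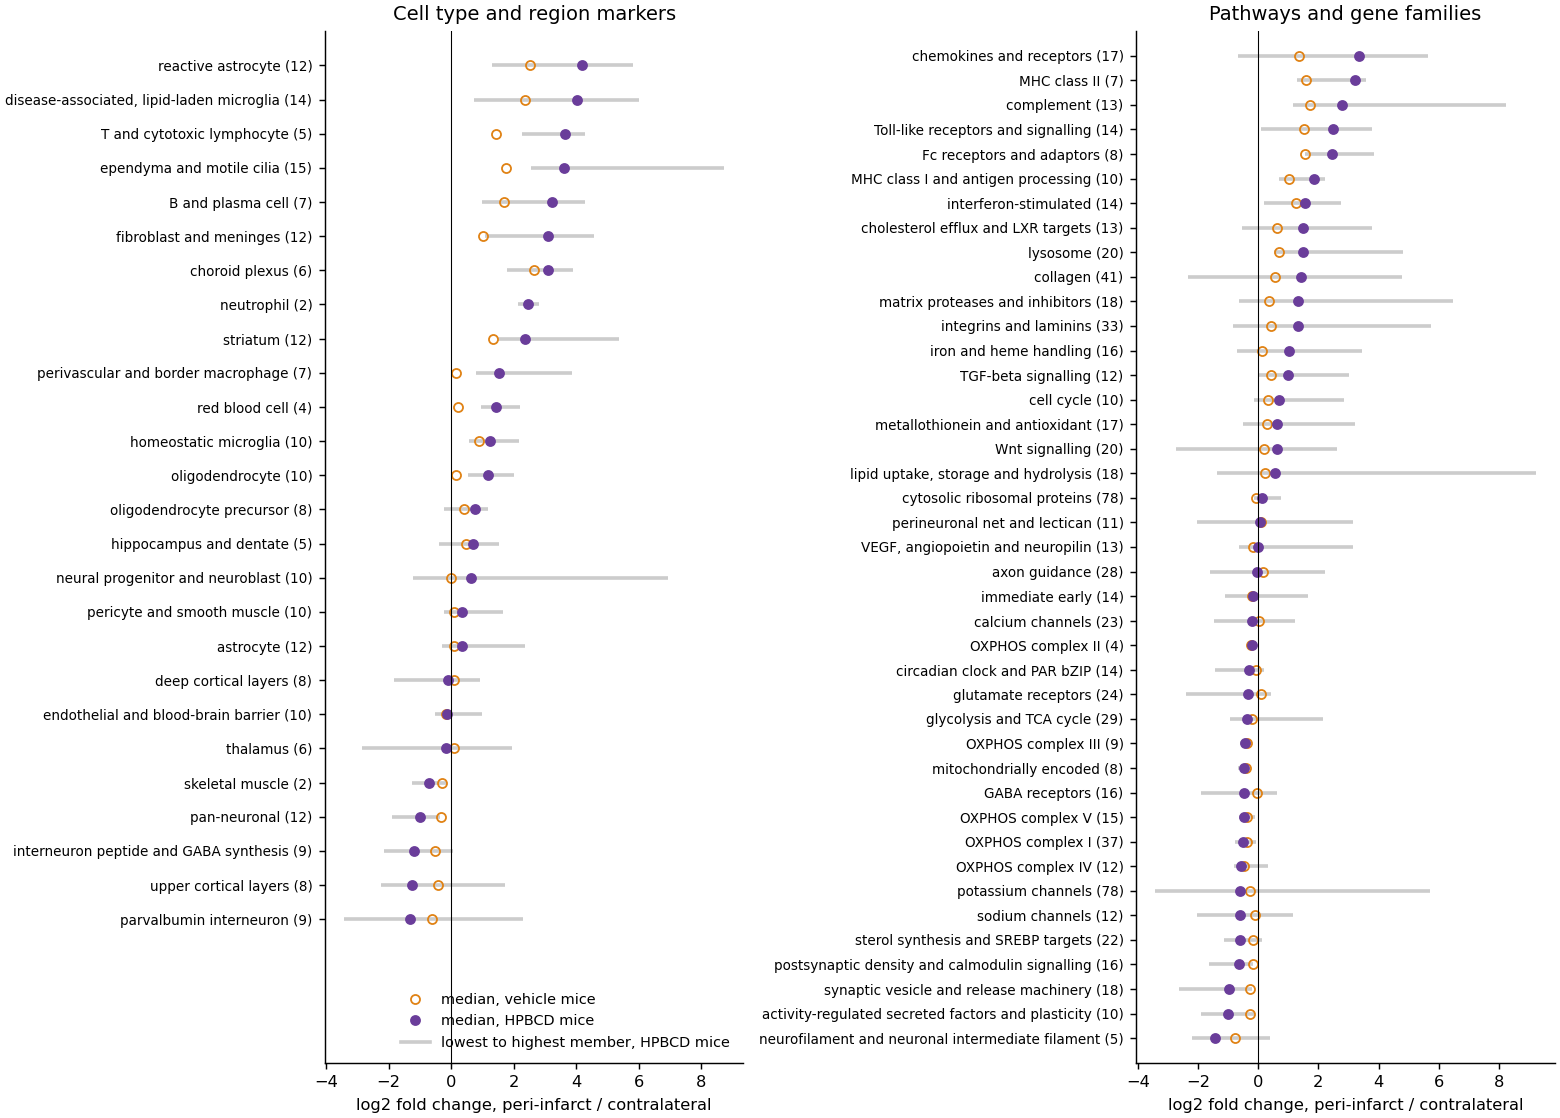
Filled points give the median log2 fold change of each list in HPBCD mice, open points the median in vehicle mice, and grey bars run from the lowest to the highest member in HPBCD mice, with the number of genes tested in HPBCD mice after each name (the vehicle fit tested fewer genes in some lists). Reactive astrocyte (4.17) and lipid-laden microglia (4.03) lists lie farthest right, and the neurofilament (-1.44) and parvalbumin interneuron (-1.30) lists farthest left.

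Extracellular matrix genes rose broadly. Of 41 collagen genes tested, 30 rose and 2 fell (median 1.42), and all 12 of 12 fibroblast and meningeal markers rose (median 3.11). Col1a1, a chain of fibrillar collagen I, was at 10.2, 5.65, 20.1, 4.18 and 9.25 CPM contralaterally and 84.9, 58.2, 169.9, 178 and 69.4 CPM beside the infarct in animals 1 to 5. Animals 3 and 4 were the highest beside the infarct, and the regions did not overlap. It rose by 3.48 ± 0.32 (SE, adjusted p = 3.61e-05), Col1a2 by 3.73, Col3a1 by 4.58 and the proteoglycan Dcn by 4.39. The first collagens in the list were Col11a1 at 0.27 ± 0.38 (SE, adjusted p = 0.568), which did not pass, and Col11a2 at 1.28, Col12a1 at 2.13 and Col13a1 at 2.36, which rose. Col24a1 and Col19a1 fell, at -2.35 ± 0.64 and -1.04 ± 0.11. Col8a1 rose by 1.96 ± 0.53 (SE, adjusted p = 0.0124) with most of its level in 1 animal, at 14.6, 13.2, 27.2, 25.2 and 203 CPM.

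Matrix proteases and their inhibitors rose in 12 of 18 cases and fell in 2. The macrophage elastase Mmp12 was at 0, 0.101, 0.552, 0 and 0 CPM contralaterally and 5.57 to 20.6 CPM beside the infarct (6.48 ± 0.55), and the stromelysin Mmp3 at 0, 0, 0.6205, 0 and 0.0564 CPM and 1.06 to 20.4 CPM (6.45 ± 0.51), with animal 2 the lowest for both. Mmp2 rose by 2.44 ± 0.19, and Mmp9 was at -0.63 ± 0.35 (SE, adjusted p = 0.162). Mmp17 and Mmp24, membrane-anchored proteases, fell by 0.57 and 0.52 on the log2 scale. Integrin and laminin genes rose in 24 of 33 cases and fell in 2, and Itga1, Itga10 and Itga11, collagen-binding integrin chains, rose by 0.95, 2.13 and 2.06, the platelet chain Itga2b was at 0.53 ± 0.22 (SE, adjusted p = 0.06795), and the chain Itgav fell by 0.49 on the log2 scale. Perineuronal net genes split, with 4 higher and 3 lower of 11: the net core protein Acan changed by -0.96 ± 0.16 and its link protein Hapln4 by -2.05 ± 0.303, and the scar proteoglycan Vcan rose by 1.19 ± 0.16 and tenascin C, Tnc, by 3.13 ± 0.23, while the brain lectican Ncan fell by 0.42 on the log2 scale and Bcan was at 0.16 ± 0.09 (SE, adjusted p = 0.152).

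Oligodendrocyte markers rose in 10 of 10 cases (median 1.17). Mbp, a major myelin protein, was at 3607, 2883, 3674, 3747 and 3470.5 CPM contralaterally and 7159.8, 6411, 7227, 10352 and 9428 CPM beside the infarct in animals 1 to 5. No peri-infarct library reached down to the contralateral range, and animal 4 was the highest on both sides. Mbp changed by 1.21 ± 0.15 (SE, adjusted p = 1.76e-04), Mog by 1.12 ± 0.096 and Mag by 1.13 ± 0.096. Precursor markers rose in 6 of 8 cases, with Pdgfra at 1.09, Cspg4 at 0.69, Olig1 at 0.47 and Olig2 at 0.18 ± 0.09 (SE, adjusted p = 0.103), which did not pass. Endothelial genes showed no common direction, with 3 higher and 3 lower of 10. The tight junction gene Cldn5 was at -0.19 ± 0.12 (SE, adjusted p = 0.198) and Pecam1 at 0.03 ± 0.09 (SE, adjusted p = 0.784), the junction gene Cdh5 rose by 0.97 ± 0.14, and Flt1, Ly6c1 and Mfsd2a fell by 0.31, 0.51 and 0.48 on the log2 scale. Pericyte and smooth muscle genes rose in 4 of 10 cases, with the receptor Pdgfrb at 1.298 ± 0.16, and Rgs5, Kcnj8 and Abcc9 at -0.17, 0.01 and -0.24 without passing.

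Genes of motile cilia and ependyma, the ciliated lining of the ventricles, rose in 15 of 15 cases without overlap. Of these, 11 of 15 passed the filter through the peri-infarct side only, so their direction follows in part from the filter, and the other 4 rose too. Their summed level was 12.2, 14.1, 22.3, 13.1 and 14.04 CPM in the contralateral libraries and 172, 161, 305, 185 and 222 CPM in the peri-infarct libraries. Ccdc153 (chr9:44240676-44247306, plus strand), a ciliary gene, had 4 counts in all over the contralateral libraries and 2422 over the peri-infarct libraries, a ratio of 500.4 (95% counting interval 195 to 1838). The ciliary factor Foxj1 was at 3.54, 4.99, 7.79, 5.63 and 4.23 CPM contralaterally and at 54.7, 41.6, 80.8, 62.04 and 63.7 CPM beside the infarct. Animal 3 was the highest on both sides, and the change was 3.54 ± 0.14 (SE, adjusted p = 1.65e-06). The dynein part Dynlrb2 rose by 2.74 ± 0.31. The dynein light chain gene Dnali1 and the ciliary kinase Ak7, both among the 12 largest rises named by rule, rose by 5.996 ± 0.39 and 5.92 ± 0.18. The ependymal membrane gene Tmem212 had 1 contralateral and 545 peri-infarct counts, a ratio of 450.4 (95% counting interval 80.5 to 17820.0).

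The promoter search for the RFX X-box, the element of ciliary genes (GTT, any base, CC, a gap of 1 to 3 bases, GG, any base, AAC, and the same on the other strand), found it in 1 of the 11 cilia members with an entry (9.09%) and in 0.903% of all genes. That member was Pifo (chr3:106001448-106001747, minus strand), which rose by 3.604 ± 0.53, and its window is printed with the match in capitals.
Pifo: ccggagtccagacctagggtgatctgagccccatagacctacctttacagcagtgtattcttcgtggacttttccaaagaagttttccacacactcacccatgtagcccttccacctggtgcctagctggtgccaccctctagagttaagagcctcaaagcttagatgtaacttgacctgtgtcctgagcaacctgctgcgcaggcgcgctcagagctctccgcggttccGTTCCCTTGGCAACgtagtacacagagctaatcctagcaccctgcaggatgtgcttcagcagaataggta

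Markers of tissue that borders the cortex moved in the same libraries. Striatal markers rose in 12 of 12 cases, and their summed level was 389.7 to 464 CPM contralaterally and 1082 to 2801 CPM beside the infarct, with animal 2 the lowest there. The dopamine receptor Drd1 was at 7.39, 13.5, 7.17, 11.3 and 8.06 CPM in the contralateral and 55.6, 18.7, 49.5, 58.7 and 64.6 CPM in the peri-infarct libraries, a change of 2.32 ± 0.33 (SE, adjusted p = 4.06e-04), and Drd2 changed by 5.38 ± 0.39 (SE, adjusted p = 1.16e-05). Among the striatal markers, Drd2 alone passed the filter through the peri-infarct side only. The dopamine signalling protein Ppp1r1b rose by 1.86 ± 0.16 and the adenosine receptor Adora2a by 4.92 ± 0.404. In vehicle mice the striatal sum reached 4625 CPM in the contralateral library of animal 1, and edgeR called 0 of the 12 genes there (3 at an unadjusted p under 0.05, 3 by DESeq2 and 0 by voom), against 12 of 12 higher without that animal. Choroid plexus genes past the filter rose in 6 of 6 cases (4 of 6 passed through the peri-infarct side only), yet all of them overlapped: the sum was 2.85, 7.11, 650.2, 6.92 and 1.86 CPM contralaterally and 27.8, 213, 706, 161 and 41.96 CPM beside the infarct. Ttr, the thyroid hormone carrier made there, was at 575 CPM in the contralateral library of animal 3 and rose by 3.91 ± 0.91 (SE, adjusted p = 0.00576). The folate receptor Folr1, the klotho gene Kl and the channel protein Clic6 rose by 3.37 ± 0.56, 2.3002 ± 0.4995 and 3.69 ± 0.698. Hippocampal markers rose in 3 of 5 cases, and Fibcd1, a marker of one hippocampal field, was at 175 CPM in the peri-infarct library of animal 2 and at 6.89 to 7.82 CPM in the other 4. The factors Prox1 and Zbtb20 and the membrane protein Wfs1, all in the hippocampal list, rose by 0.69, 1.54 and 1.32, and Cpne4 was at -0.401 ± 0.17 (SE, adjusted p = 0.0718). Of 6 thalamic genes, 2 rose and 2 fell: Tcf7l2 and Prkcd rose by 1.21 and 1.94, Rora and Slc17a6 fell, and Lef1 was at -0.06 ± 0.22 (SE, adjusted p = 0.824). Skeletal muscle genes were checked as a sign of other tissue, and of 2 past the filter Acta1 fell by 1.25 on the log2 scale and Mylpf was at -0.14 ± 0.25 (SE, adjusted p = 0.6597). Without animal 4, 3 muscle genes passed the filter and 2 of them fell. How far the cut of the tissue had a part in the changes of glia, neurons and cilia was not tested.

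**Figure D3:**
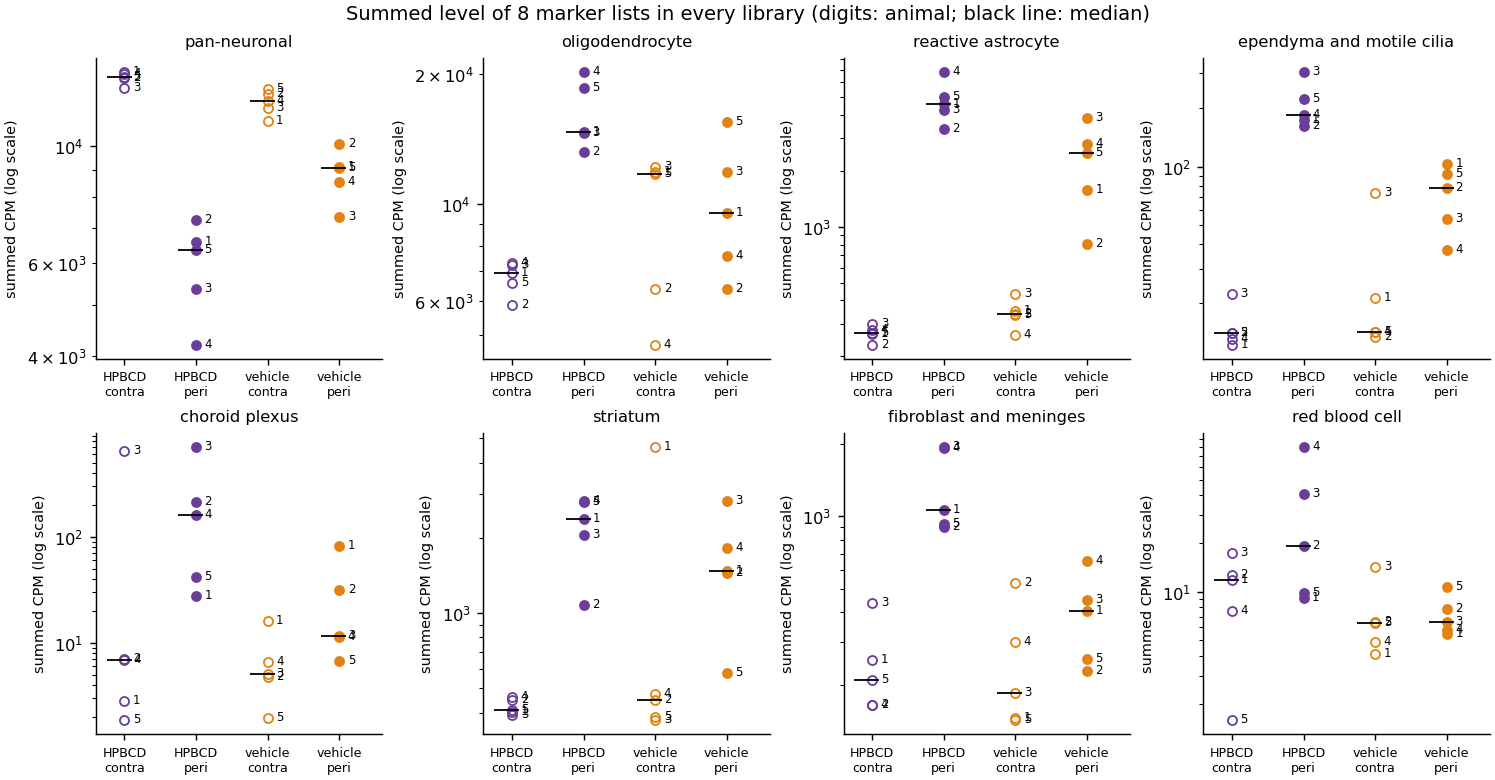
Summed CPM of 8 marker lists (log axis) in each of the 20 libraries, with open points for contralateral and filled points for peri-infarct tissue, violet for HPBCD and orange for vehicle mice, digits for the animal and black lines for group medians. The regions of HPBCD mice are apart for the neuronal, oligodendrocyte, reactive astrocyte, ependyma, striatum and fibroblast lists, and overlap for choroid plexus genes, where animal 3 is the highest on both sides, and for red blood cell genes, where animals 4 and 3 are the highest beside the infarct.

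Neuronal genes fell. All 12 of 12 pan-neuronal markers fell without overlap (median -0.98), and their sum was 12868 to 13836 CPM contralaterally and 4201 to 7256 CPM beside the infarct. Snap25, a core protein of synaptic vesicle fusion, was at 6042, 5356, 5334, 5703 and 5964 CPM contralaterally and 1704, 1963, 1331, 1032 and 1871 CPM beside the infarct in animals 1 to 5. Every peri-infarct library lay far below the contralateral range, that of animal 4 the lowest. Snap25 changed by -1.88 ± 0.18 (SE, adjusted p = 3.82e-05), the nuclear marker Rbfox3 by -1.19 ± 0.12, the calcium sensor Syt1 by -1.098 ± 0.19 and the tubulin Tubb3 by -0.83 ± 0.12.

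Among the genes named by rule, the one that fell most was Kcnab3 (chr11:69326258-69333042, plus strand), a potassium channel subunit, at 160.3, 153, 146, 162 and 188 CPM contralaterally and 9.67, 16.5, 17.1, 9.49 and 28.1 CPM beside the infarct. The regions did not overlap, and animals 1 and 4 were the lowest beside the infarct. Its change was -3.42 ± 0.21 (SE, adjusted p = 6.57e-06), and 147 bases of it overlap a gene on the opposite strand, whose reads may be counted with it. Pvalb, the calcium buffer of fast-spiking interneurons, was at 160.3, 108, 113, 132 and 156 CPM contralaterally and 9.7999, 16.6, 15.9, 13.3 and 29.04 CPM beside the infarct, a change of -3.05 ± 0.22 (SE, adjusted p = 1.12e-05). The list of parvalbumin interneuron genes fell in 8 of 9 cases, with the fast potassium channels Kcnc1 and Kcnc2 at -1.67 ± 0.19 and -1.3001 ± 0.23 and the vesicle protein Syt2 at -2.52 ± 0.16. The one member that rose, Tac1 at 2.31 ± 0.29, is also in the striatal list. Other peptides and the enzymes of GABA synthesis fell in 8 of 9 cases, with Gad1 at -1.18 ± 0.14, the vesicle transporter Slc32a1 at -0.39 ± 0.11 and Sst at -0.52 ± 0.104, whereas the second GABA enzyme Gad2 was at 0.05 ± 0.15 (SE, adjusted p = 0.7903). Gad1 and Gad2 are also used by striatal neurons.

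Cortical layer markers were read as 2 lists, upper and deep. Upper layer genes fell in 7 of 8 cases (median -1.25), with the transcription factors Cux1, Cux2 and Rorb at -0.73 ± 0.13, -1.43 ± 0.17 and -1.302 ± 0.13 and the signalling gene Rasgrf2 at -1.19 ± 0.15, and Otof rose by 1.74 ± 0.11. Deep layer genes split, with 2 higher and 2 lower of 8: Bcl11b and Foxp2, which striatal neurons also make, rose by 0.94 and 0.68, Fezf2 and Tle4 were at -0.42 and -0.17 without passing, and Tbr1 and Hs3st4 fell, at -1.83 ± 0.24 and -0.82 ± 0.23. Without animal 5 only 1 in each direction was called. Slc17a6, a vesicular glutamate transporter, was at 33.7, 43.5, 32.7, 33.9 and 31.5 CPM contralaterally and 8.29, 2.13, 5.38, 4.14 and 5.12 CPM beside the infarct, a change of -2.86 ± 0.27 (SE, adjusted p = 3.65e-05), with animal 2 the lowest. The other large falls named by rule were in Tmem215 (-2.81), Ankrd34c (-2.76) and the ligand genes Wnt10a (-2.73) and Rspo1 (-2.57). They also included the muscle-type filament genes Mybpc1 (-2.72) and Igfn1 (-2.704), the synapse organizers Cbln4 (-2.71) and Cbln2 (-2.56) and the vesicle fusion gene Vamp1 (-2.62). Progenitor and neuroblast genes rose in 6 and fell in 4 of 10 cases. The neuroblast tubulin binder Dcx changed by -0.75 ± 0.19 (SE, adjusted p = 0.00905), the factors Sox11 and Sox4 rose by 0.47 and 0.86, and Dlx1, Dlx2 and Sp8, factors of GABA neurons, fell by 1.22, 0.89 and 1.22 on the log2 scale.

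Synapse genes fell almost without exception. Vesicle and release genes fell in 17 of 18 cases (median -0.98), with the vesicle proteins Syn1, Syp and Sv2a at -0.94 ± 0.16, -0.901 ± 0.19 and -0.75 ± 0.13, and Syn2 at -0.21 ± 0.17 (SE, adjusted p = 0.325). Postsynaptic and calmodulin genes fell in 14 of 16 cases, with the scaffolds Dlg4, Dlgap1, Shank1 and Shank2 at -0.42, -1.09, -0.88 and -0.57. Neurofilament genes fell in 4 of 5 cases: the light, medium and heavy chains Nefl, Nefm and Nefh changed by -1.41 ± 0.15, -1.87 ± 0.12 and -2.22 ± 0.23, and Ina by -1.44 ± 0.15. Activity-regulated secreted factors and plasticity genes fell in 9 of 10 cases, with the growth factor Bdnf at -0.93 ± 0.23, the pentraxins Nptx1 and Nptx2 at -1.12 ± 0.26 and -1.09 ± 0.13 and neuritin, Nrn1, at -1.89 ± 0.24. Bdnf did not fall in every animal, with 33.7 CPM contralaterally and 40.5 CPM beside the infarct in animal 2. Immediate early genes, which track recent activity, showed no common direction, with 3 higher and 4 lower of 14: Fos was at 0.17 ± 0.15 (SE, adjusted p = 0.341), Fosb at -0.15 without passing, Junb rose by 0.37, Egr1 changed by -1.12 ± 0.14 and Egr2 and the antiproliferative gene Btg2 rose by 1.64 ± 0.28 and 0.46 ± 0.11.

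Ion channels and receptors fell selectively. Among glutamate receptor genes 9 of 24 fell and 2 rose (median -0.34). The AMPA receptor subunits Gria1 and Gria2 were at 0.31 and -0.43 without passing, Gria3 and Gria4 changed by -0.76 ± 0.13 and -0.93 ± 0.14, and Grm2 fell most, at -2.395 ± 0.22. The kainate receptor gene Grik2 rose by 0.42. GABA receptor genes fell in 9 of 16 cases, with the metabotropic subunits Gabbr1 and Gabbr2 at -0.54 and -1.24, and Gabra2 at -0.07 without passing. Sodium channel genes fell in 6 and rose in 4 of 12 cases: Scn1a, the channel of fast-spiking cells, changed by -2.04 ± 0.17 (SE, adjusted p = 1.87e-05) and Scn10a by -1.26 ± 0.39, Scn2a was at -0.54 ± 0.22 (SE, adjusted p = 0.0634), and Scn3a, Scn4b and Scn7a rose by 0.37, 0.56 and 1.17. Calcium channel genes fell in 10 and rose in 3 of 23 cases, with Cacna1a and Cacna1b at -1.11 and -0.58, and Cacna1c and Cacna1d at 0.16 and 0.05 without passing, and Cacna1h, Cacng4 and Cacng5 rose by 1.22, 1.15 and 0.86. In the potassium channel family, 45 of 78 fell and 14 rose (median -0.59). Kcna1 and Kcna2, channels of axons, changed by -1.12 ± 0.11 and -1.402 ± 0.17, Kcna3 was at 0.23 ± 0.47 (SE, adjusted p = 0.698) and Kcna4 rose by 0.41 ± 0.12. Among the 14 were 5 that passed the filter through the peri-infarct side only, which include Kcnj15 at 5.71 ± 0.45, the immune cell channel Kcnn4 at 3.49 ± 0.49 and Kcnk5 at 3.46 ± 0.299. Beside these and Kcna4, the other 10 that rose were Kcna5, Kcnab1, Kcne4, Kcnj13, Kcnj2, Kcnk10, Kcnk13, Kcnk6, Kcnmb1 and Kcnn3, at 3.18, 0.66, 2.52, 2.07, 0.52, 0.61, 1.21, 1.27, 2.76 and 1.18.

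**Figure D4:**
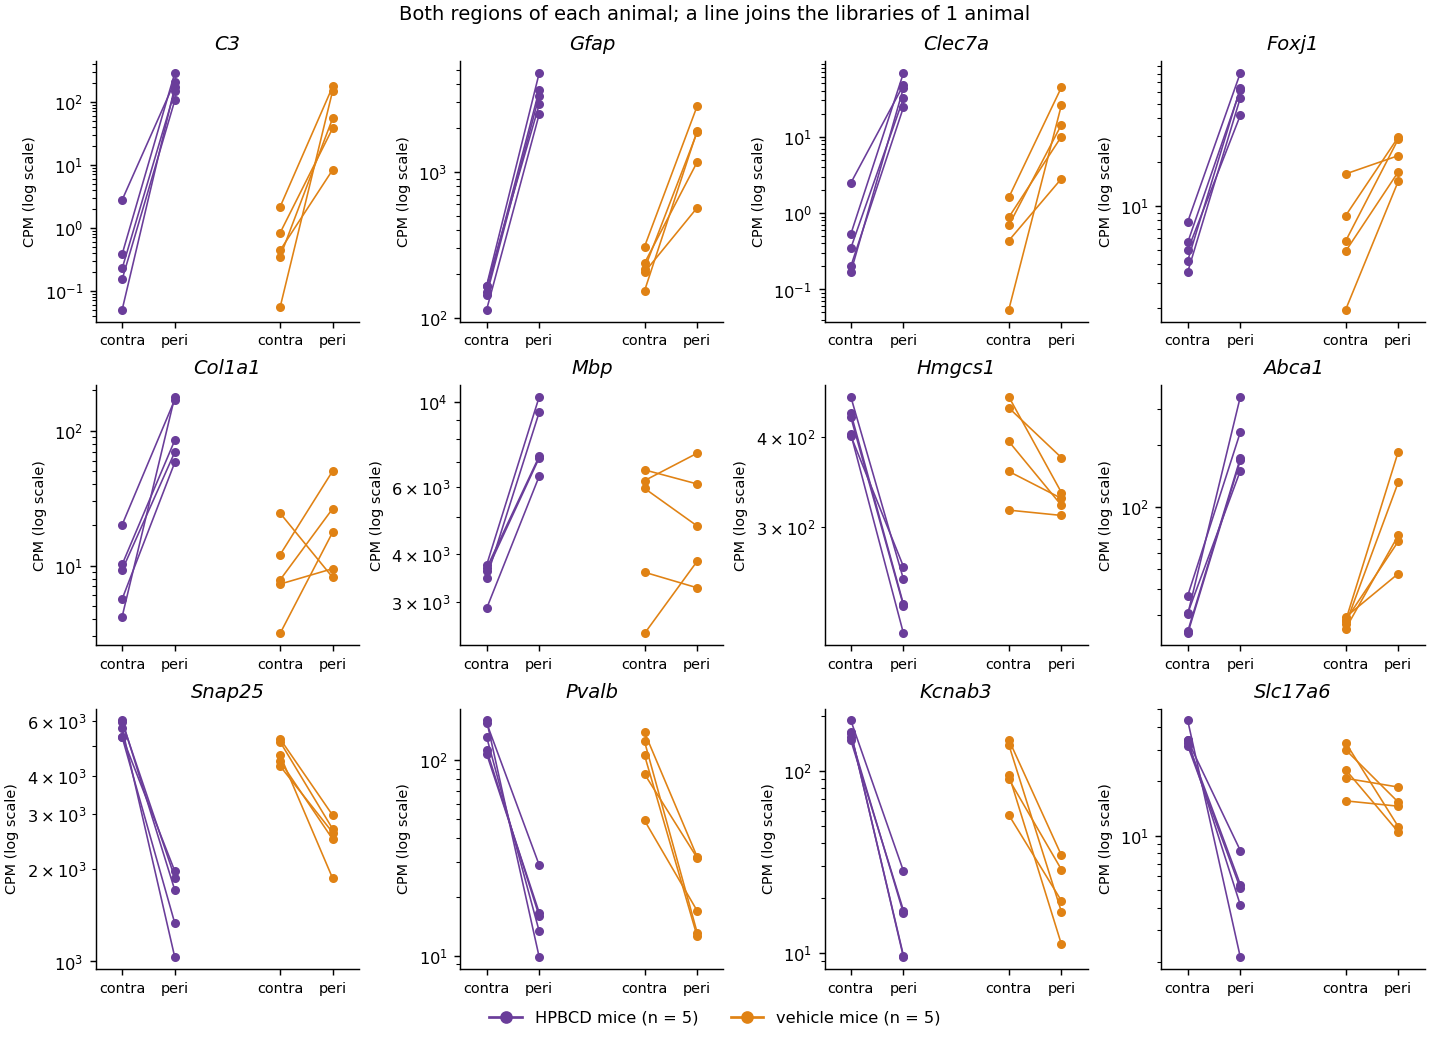
CPM (log axis) of 12 genes in contralateral and peri-infarct tissue, with a line for each animal, violet for the 5 HPBCD mice and orange for the 5 vehicle mice. In HPBCD mice every line rises for the first 6 genes and Abca1 and falls for Hmgcs1, Snap25, Pvalb, Kcnab3 and Slc17a6, and no region ranges overlap.

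Nuclear genes of the respiratory chain fell by small, even steps. Complex I subunits fell in 29 of 37 cases, complex II in 2 of 4, complex III in 8 of 9, complex IV in 10 of 12 and complex V in 12 of 15, with medians of -0.4999, -0.21, -0.44, -0.57 and -0.49, and none rose. Without animal 4 the counts were 34, 2, 9, 10 and 13, and complex II had none without animal 1 or without animal 5, and 1 without animal 2 or without animal 3. Ndufa1 was at -0.29 ± 0.13 (SE, adjusted p = 0.0837), Ndufa10, Ndufa11 and Ndufa12 fell by 0.55, 0.51 and 0.60 on the log2 scale, the complex III subunits Uqcrb, Uqcrc1, Uqcrc2 and Uqcrfs1 by 0.39, 0.53, 0.40 and 0.43, and the oxidase subunits Cox4i1, Cox5a and Cox5b by 0.49, 0.69 and 0.50, with Cox4i2 at 0.27 ± 0.398 (SE, adjusted p = 0.596). The complex II genes Sdhb and Sdhd fell by 0.32 and 0.24, and Sdha and Sdhc were at -0.18 and -0.05 without passing. Of the synthase subunits, Atp5b, Atp5c1 and Atp5d fell by 0.48, 0.39 and 0.56 and Atp5a1 was at -0.27 ± 0.11 (SE, adjusted p = 0.0742). Of 8 genes of the mitochondrial genome that were tested, 3 fell, 8 fell without animal 4 and none passed without animal 1, 3 or 5, so their call turned on single animals. The oxidase subunit mt-Co1 was at 47158, 32039, 41506, 38598 and 45414 CPM contralaterally and 22622, 22028, 26038, 38589 and 27042 CPM beside the infarct, and the regions overlapped between the contralateral library of animal 2 and the peri-infarct library of animal 4. The complex I genes mt-Nd1 and mt-Nd2 fell by 0.67 and 0.62, and mt-Cytb was at -0.38 ± 0.21 (SE, adjusted p = 0.159). Glycolysis and citric acid cycle genes fell in 22 of 29 cases, with Hk1 at -0.35 and the muscle-type Pfkm at -0.73, and Gpi1 at -0.21 without passing. Hexokinase 2, Hk2, went the other way: 3.94, 4.99, 3.31, 3.804 and 5.19 CPM contralaterally and 18.002, 19.2, 16.9, 25.2 and 15.9 CPM beside the infarct in animals 1 to 5, with no overlap, for a rise of 2.15 ± 0.16 (SE, adjusted p = 1.24e-05). Ribosomal protein genes were nearly level, with 16 of 78 higher, none lower and a median of 0.14, and the count was 36 without animal 1, 10 without animal 2, 7 without animal 3, 9 without animal 4 and 7 without animal 5. Rpl10 and Rpl10a rose by 0.65 and 0.47, and Rpl11 and Rpl12 were at 0.21 and -0.04 without passing.

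Stress, metal and clock genes filled out the change. Metallothionein and antioxidant genes rose in 12 of 17 cases: the metal binders Mt1 and Mt2 rose by 1.05 ± 0.14 and 1.79 ± 0.17 and the heme oxygenase Hmox1 by 2.13 ± 0.15, Mt3, the brain metallothionein, was at 0.26 ± 0.12 (SE, adjusted p = 0.106), and the mitochondrial dismutase Sod2 fell, at -0.505 ± 0.11. Iron genes rose in 10 of 16 cases and fell in 2, with the transferrin receptor Tfrc at -0.71 ± 0.14, the ferritin chains Fth1 and Ftl1 at 0.78 ± 0.14 and 1.48 ± 0.14, transferrin, Trf, at 1.74 ± 0.201 and Blvra, a bilirubin-forming reductase, at -0.41 ± 0.11. Trf shares 2108 bases with another gene on its strand, so its counts are uncertain. Clock genes fell in 8 of 14 cases, with Arntl at -0.38 ± 0.08 and Npas2 at -0.37 ± 0.12, and Clock and Per1 at 0.07 and 0.13 without passing.

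Among signalling families, Wnt genes rose in 14 and fell in 3 of 20 cases. Wnt5a and Wnt7a rose by 1.48 ± 0.13 and 0.405 ± 0.14, Wnt2b, Wnt10a and the inhibitor Frzb fell, at -1.56 ± 0.25, -2.73 ± 0.32 and -0.96 ± 0.17, and Wnt4 was at -0.28 ± 0.12 (SE, adjusted p = 0.0711). Axon guidance genes rose in 11 and fell in 6 of 28 cases: Sema4d rose by 1.099 ± 0.12, Sema3c, Sema5a, Sema7a, Robo2, Rtn4 and the Nogo receptor Rtn4r fell by 0.37, 0.56, 1.49, 0.43, 0.42 and 1.59 on the log2 scale, and Sema3a and Sema3e were at -0.34 and 0.22 without passing. Of the vessel growth genes, 6 rose and 3 fell of 13: Vegfa, Vegfb and the receptor Flt1 fell by 0.63, 0.32 and 0.31 on the log2 scale, and Vegfc and Vegfd rose by 0.74 ± 0.203 and 1.27 ± 0.36. Cell cycle genes rose in 7 of 10 cases, and the list summed to 118 to 125 CPM contralaterally and 177 to 209 CPM beside the infarct. Mki67, a marker of dividing cells, was at 0.226 to 0.807 CPM contralaterally and 1.48 to 7.01 CPM beside the infarct, Top2a at 0.0564 to 0.3804 and 1.16 to 1.53 CPM, and Ccna2 and Birc5 were at 0.31 and 0.65 without passing.

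The remaining genes among the 12 largest rises named by rule were low on the contralateral side. Ucma, a secreted cartilage protein, had 7 contralateral counts in all and reached 9.63, 12.2, 13.5, 16.01 and 14.1 CPM beside the infarct, a ratio of 157 (95% counting interval 76.1 to 392). The crosslinking enzyme Tgm1 had 7 contralateral counts and a ratio of 124 (59.8 to 308). The purine base transporter Slc43a3 rose by 6.58 ± 0.31 and Cd109, a surface relative of A2m, by 5.97 ± 0.23.

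Whether the region change differed between treatments was tested as the interaction over all 20 libraries. In vehicle mice, 3053 of 15801 genes (19.3%) were called, 1615 higher (10.2%) and 1438 lower (9.1%). The interaction was called in 1830 of 16758 genes (10.9%), 1008 more positive (6.02%) and 822 more negative (4.91%) in mice labelled HPBCD, and it rests on animals: the count was 392 without HPBCD animal 3, 394 without vehicle animal 1 and 511 without vehicle animal 2, and the vehicle count was 491 without vehicle animal 5. Of lists with at least 10 genes tested, those with the largest shares were pan-neuronal, 11 of 12 more negative, oligodendrocyte, 9 of 10 more positive, synaptic vesicle, 11 of 18 more negative, and fibroblast, 6 of 12 more positive. Oligodendrocyte genes had a median of 0.17 in vehicle mice, where the regions overlapped: Mbp was at 5953, 3588, 6656, 2478 and 6238 CPM contralaterally and 4743, 3266, 6113, 3834 and 7359 CPM beside the infarct, and its change differed from that in HPBCD mice by 1.15 ± 0.2005 (SE, adjusted p = 0.0192). Sterol synthesis genes were more negative in 7 of 22 cases and lysosome genes more positive in 7 of 20. For the difference, edgeR called 0 of the 77 nuclear respiratory chain genes (7 at an unadjusted p under 0.05, 1 by DESeq2 and 1 by voom), 0 of 10 homeostatic microglia genes (5, 1 and 1), 0 of 14 interferon-stimulated genes (3, 1 and 1) and 0 of 12 striatal genes (0, 0 and 0), which does not show that their changes were alike.

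Among genes that met the limits of the naming rule in the HPBCD region comparison (at least 5 CPM on average, a called change, 5 of 5 animals in one direction and no overlap), the 5 most positive differences were in Ucma at 3.76 ± 0.59 (SE, adjusted p = 0.0192), the Wnt inhibitor Sfrp4 at 3.497 ± 0.97 (SE, adjusted p = 0.0415), the lactate receptor Hcar1 at 3.16 ± 0.93 (SE, adjusted p = 0.0484), the proteoglycan Lum at 3.01 ± 0.65 (SE, adjusted p = 0.0231) and Cd109 at 2.96 ± 0.51 (SE, adjusted p = 0.0192). Sfrp4 was at 98.9, 30.6, 139, 218 and 105 CPM beside the infarct of HPBCD mice and at 0.969, 1.08, 1.86, 32.1 and 4.55 CPM in vehicle mice, where animal 4 alone stood out. The 5 most negative were in Slc17a6 at -2.08 ± 0.39 (SE, adjusted p = 0.0196), Igfn1 at -1.86 ± 0.304 (SE, adjusted p = 0.0192), Plcxd2 at -1.702 ± 0.33 (SE, adjusted p = 0.0199), Gm11549 at -1.66 ± 0.31 (SE, adjusted p = 0.0195) and Ankrd34c at -1.64 ± 0.31 (SE, adjusted p = 0.0195). For Slc17a6 the vehicle levels were 15.6, 20.8, 23.2, 29.95 and 32.8 CPM contralaterally and 14.6, 18.6, 10.5, 15.4 and 11.2 CPM beside the infarct, a smaller step from a lower start than in HPBCD mice. The contralateral sums of the treatments were not the same either: neuronal markers summed to 12868 to 13836 CPM in HPBCD and 11170.0 to 12849 CPM in vehicle mice, and oligodendrocyte markers to 5847 to 7338 CPM and 4734 to 12188 CPM. Their part in these differences was not tested.

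**Figure D5:**
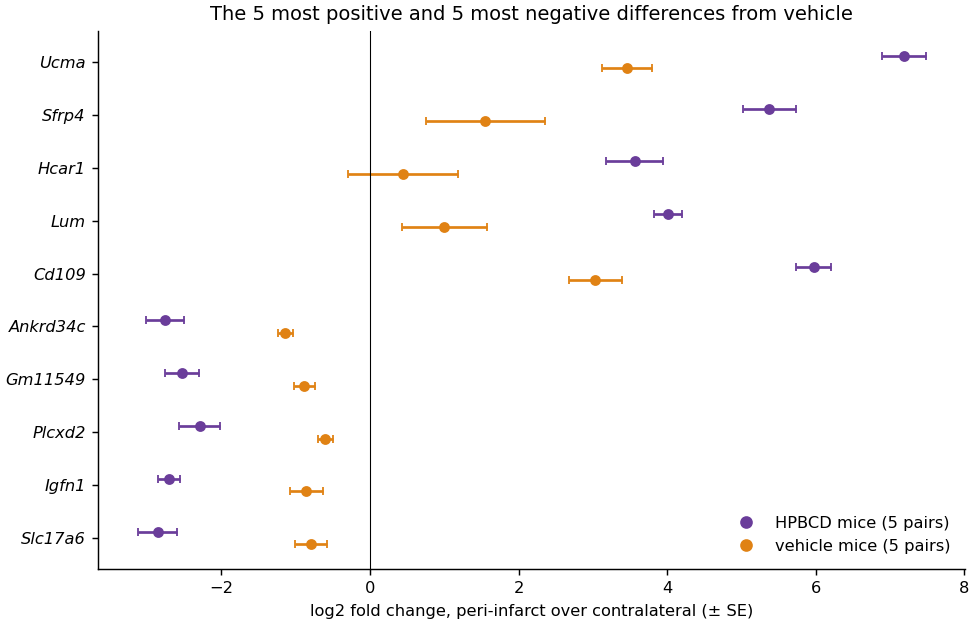
Log2 fold change of peri-infarct over contralateral tissue (x axis, point ± SE) in HPBCD mice (violet, 5 pairs) and vehicle mice (orange, 5 pairs) for the 10 genes named for the difference between treatments. Ucma lies at 7.18 in HPBCD and 3.46 in vehicle mice and Sfrp4 at 5.37 and 1.55. All 10 genes changed further in mice labelled HPBCD, which follows in part from the naming limits, set on the HPBCD comparison alone.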

How the data were processed

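Polyadenylated RNA of both regions was read from stranded mRNA libraries, and per the labels and methods the authors demultiplexed with bcl2fastq 2.19, trimmed with Trimmomatic 0.32, aligned 75-base pairs to GRCm38 with STAR 2.5.2b and counted genes with htseq-count. The deposited values are raw counts per gene, 1 table per library, with no normalization; htseq-count's version, annotation release and strand setting are not given in the sources used here, so counts of overlapping genes are uncertain. The lines that name no gene (no feature, 4.39% to 9.5% of read pairs, and ambiguous, 3.94% to 8.03%, among them) were left out. Of 46078 genes, 45229 were found in GENCODE M21. Counts were tested with edgeR 4.0.16 (R 4.3.3, TMM, filterByExpr, quasi-likelihood F test, Benjamini-Hochberg adjustment), the animal as a block, since same-number libraries share an identifier and come from 1 animal (correlation of their deviations from group means, -0.102 to 0.301 over the 5 HPBCD pairs). The SE is the log2 fold change divided by the square root of F. Libraries were grouped by title, and p-values measure the spread between these 5 animals per treatment. The deepest library held 22171627 gene counts and the shallowest 14445021.

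Named genes were the 12 that rose and the 12 that fell most among genes with an adjusted p under 0.05, at least 5 CPM on average, 5 of 5 animals in one direction and no overlap; the first 4 tested members of each list and members against their list; and, within the same limits, 5 interaction terms per direction. The members, lists and alternatives were chosen with earlier results of these data known. The fits were tested on simulated data, where the share of false calls lay above the threshold in the region fits of each tool and, for the interaction, with DESeq2 alone, and was highest with DESeq2. Alternatives were no block, DESeq2 1.42.0, limma 3.58.1 voom, other scalings and filters, thinning, a 2-fold minimum and leaving out each animal; single libraries were left out without the block, an alternative added after seeing the data. Protein sequences were not used here, and some list members that the naming rule covers are not reported here.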

Additional observations from a re-analysis of the deposited data

Results flagged for a closer look

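Among the 759 groups of 5 libraries checked (the levels of the genes named above and the sums of the marker lists, in each region of HPBCD mice), 65 held a library far from the other 4 by Dixon's test, and chance gives about 1 in 20, or 38. The contralateral library of animal 3 was the one in 23 of them and the peri-infarct library of animal 2 in 10.

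In animal 1, the contralateral library held the highest level of Pmvk at 77.4 CPM (others 51.96 to 58.97), Cd8a at 0.2496 CPM (others 0 to 0.0689), Tubb3 at 377 CPM (others 291 to 313), Cox5a at 67.9 CPM (others 34.6 to 44.2), Cox5b at 290.0 CPM (others 173 to 203) and Gpi1 at 533 CPM (others 414 to 432).

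In animal 1, the contralateral library held the lowest level of Slc1a3 at 572 CPM (others 699.6 to 746), Rorb at 62.6 CPM (others 90.7 to 97.7) and Sox4 at 4.49 CPM (others 8.27 to 9.53).

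In animal 2, the contralateral library held the highest level of Cspg4 at 19.1 CPM (others 15.7 to 16.1), Tmem212 at 0.0504 CPM (others 0 to 0) and Slc17a6 at 43.5 CPM (others 31.5 to 33.9).

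In animal 2, the contralateral library held the lowest level of H2-D1 at 56.5 CPM (others 66.8 to 68.3).

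In animal 3, the contralateral library held the highest level of C3 at 2.76 CPM (others 0.0499 to 0.3804), C1ra at 10.2 CPM (others 6.86 to 7.74), Clec7a at 2.48 CPM (others 0.169 to 0.533), Atp6v0d2 at 3.65 CPM (others 0 to 0.252), Cd36 at 1.52 CPM (others 0.0761 to 0.303) and Tgfb2 at 18.7 CPM (others 14.97 to 15.6). Further genes with their highest value there were Igkc at 2.896 CPM (others 0.3804 to 1.05), Col1a2 at 34.3 CPM (others 9.68 to 13.5), Mmp12 at 0.552 CPM (others 0 to 0.101), Mmp3 at 0.6205 CPM (others 0 to 0.0564), Dnali1 at 0.6205 CPM (others 0.0499 to 0.152) and Ttr at 575 CPM (others 0 to 4.72). The same library was highest for Folr1 at 2.62 CPM (others 0.0499 to 0.151), Kl at 27.02 CPM (others 1.01 to 2.15), Clic6 at 28.1 CPM (others 0.202 to 0.989), Prox1 at 17.2 CPM (others 14.02 to 14.7), Kcnk5 at 2.07 CPM (others 0.533 to 0.902) and Kcne4 at 3.102 CPM (others 0.761 to 1.25). Last in that library were the highest values of Sfrp4 at 6.62 CPM (others 1.15 to 2.28), the summed B and plasma cell markers at 13.2 CPM (others 7.95 to 9.205), the summed choroid plexus markers at 650.2 CPM (others 1.86 to 7.11) and the summed ependyma and motile cilia markers at 22.3 CPM (others 12.2 to 14.1).

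In animal 3, the contralateral library held the lowest level of Scarb1 at 11.7 CPM (others 14.3 to 15.1).

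In animal 4, the contralateral library held the highest level of Trim30a at 1194 CPM (others 1.93 to 3.89).

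In animal 4, the contralateral library held the lowest level of Lef1 at 3.73 CPM (others 5.75 to 6.205) and Mylpf at 0.685 CPM (others 1.103 to 1.26).

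In animal 5, the contralateral library held the highest level of Insig1 at 149.7 CPM (others 105 to 111), Cacna1a at 225 CPM (others 193 to 202) and Vegfa at 86.4 CPM (others 54.95 to 63.5).

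In animal 5, the contralateral library held the lowest level of the summed T and cytotoxic lymphocyte markers at 1.297 CPM (others 2.28 to 2.59).

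In animal 2, the peri-infarct library held the highest level of Fibcd1 at 175 CPM (others 6.89 to 7.82), Bcl11b at 241 CPM (others 132 to 146), Bdnf at 40.5 CPM (others 13.1 to 17.4), Gria1 at 884 CPM (others 214 to 326), Gabra2 at 69.3 CPM (others 37.2 to 43.7) and Clock at 91.8 CPM (others 70.5 to 75.6). Further genes with their highest value there were Sema3e at 105 CPM (others 35.05 to 43.7) and the summed hippocampus and dentate markers at 658 CPM (others 318 to 365).

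In animal 2, the peri-infarct library held the lowest level of Cux1 at 57.9 CPM (others 85.1 to 91.4) and Rorb at 27.5 CPM (others 36.6 to 38.02).

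In animal 3, the peri-infarct library held the highest level of Dynlrb2 at 4.55 CPM (others 1.72 to 2.43), Ttr at 566 CPM (others 9.295 to 140.1) and the summed choroid plexus markers at 706 CPM (others 27.8 to 213).

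In animal 4, the peri-infarct library held the highest level of Aqp4 at 789 CPM (others 459.7 to 513), Cx3cr1 at 292 CPM (others 163 to 200.2), Lpl at 146 CPM (others 80.6 to 89.9) and Tlr3 at 35.5 CPM (others 24.1 to 26.4).

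In animal 4, the peri-infarct library held the lowest level of Dlx1 at 9.22 CPM (others 18.7 to 21.2).

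In animal 5, the peri-infarct library held the highest level of Col8a1 at 203 CPM (others 13.2 to 27.2), Syt2 at 28.1 CPM (others 17.1 to 19.2), Egr1 at 247 CPM (others 122 to 130.1) and Atp5c1 at 178 CPM (others 156 to 162).

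The change between regions was more positive in HPBCD than in vehicle mice for 40 of the 354 named genes tested. Over all genes, 6.02% were more positive (edgeR interaction term, adjusted p under 0.05, difference of log2 fold changes). Of the 40, 5 were named for the size of this term. Others were named for their change in HPBCD mice or after their values were seen, so the shares cannot be compared. The difference was 6.30 in Lrp2, 3.76 in Ucma, 3.50 in Sfrp4, 3.44 in Cd79a, 3.16 in Hcar1, 3.01 in Lum, 2.96 in Cd109, 2.72 in Slc43a3, 2.70 in Col3a1, 2.67 in Dcn, 2.65 in Kcnk5 and 2.52 in Cxcr4. It was 2.46 in Col1a2, 2.44 in Cd79b, 2.43 in Col1a1, 2.35 in Cd36, 2.29 in Kcne4, 1.95 in Itga11, 1.91 in C4b, 1.77 in Foxj1, 1.76 in Gfap, 1.60 in Col12a1, 1.43 in Tnc and 1.36 in Sdc1. It was 1.33 in Egr2, 1.15 in Mbp, 1.01 in Cdh5, 0.96 in Mag, 0.89 in Pdgfrb, 0.88 in Kcnk13, 0.88 in Mog, 0.82 in Lipa, 0.82 in Ftl1, 0.80 in Zbtb20, 0.78 in Fth1 and 0.70 in Lamp2. It was 0.56 in Lamp1, 0.46 in Rpl10, 0.46 in Npc1 and 0.41 in Olig1. The value of Lrp2, which had no contralateral count in HPBCD mice, depends on the prior count and is no bound. The paper reports Gfap, Cxcr4, Cd36, Lipa, Lamp1, Npc1 and Sdc1 as lower in peri-infarct tissue of HPBCD than of vehicle mice. That is another comparison, of the treatments within peri-infarct tissue, and it was not made here. Why the directions differ was not tested.

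The change between regions was more negative in HPBCD than in vehicle mice for 41 of the 354 named genes tested. Over all genes, 4.91% were more negative (edgeR interaction term, adjusted p under 0.05, difference of log2 fold changes). Of the 41, 5 were named for the size of this term, and the shares again cannot be compared. The difference was -2.08 in Slc17a6, -1.86 in Igfn1, -1.70 in Plcxd2, -1.66 in Gm11549, -1.64 in Ankrd34c, -1.55 in Grm2, -1.38 in Nrn1, -1.33 in Tbr1, -1.28 in Cbln2, -1.04 in Rtn4r, -1.03 in Gabbr2 and -0.98 in Cux2. It was -0.95 in Snap25, -0.95 in Rasgrf2, -0.92 in Kcnc1, -0.90 in Scn1a, -0.90 in Nptx2, -0.89 in Vamp1, -0.87 in Pparg, -0.85 in Kcna2, -0.85 in Syn1, -0.85 in Dlgap1, -0.79 in Ina and -0.77 in Rorb. It was -0.71 in Gria4, -0.71 in Gria3, -0.65 in Nefl, -0.63 in Cacna1a, -0.63 in Nefm, -0.61 in Tubb3, -0.60 in Hmgcs1, -0.59 in Rbfox3, -0.58 in Insig1, -0.57 in Gad1, -0.55 in Sv2a and -0.55 in Rora. It was -0.49 in Mgll, -0.42 in Pfkm, -0.41 in Nceh1, -0.40 in Arntl and -0.38 in Ncan. In its comparison of the treatments within peri-infarct tissue, the paper reports Nceh1, Ina, Nefl and Syn1 as higher under HPBCD. Why these directions differ was not tested either.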

How the results depend on the processing

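In HPBCD mice, 8860 genes were called with the animal as a block and 8764 with no replicate block, so the pairing changed the count little. The count was 7424 to 8604 over fits that left out 1 animal, 7783 to 9402 over the other tools, scalings and filters, and 8043 to 9382 over fits without the block that left out 1 library. Requiring more than a 2-fold change left 1971 genes, 1700 higher and 271 lower. In vehicle mice, 3053 genes became 3195 with no replicate block, 491 to 2636 without 1 animal, 2000 to 3920 over fits without the block that left out 1 library (2000 without the contralateral library of animal 5), and 13 with the 2-fold minimum. For the difference between treatments, 1830 genes became 1577 with no replicate block, 2988 with DESeq2, 3021 with voom, 392 to 2282 without 1 animal, and 0 with the 2-fold minimum, where edgeR gave 495 genes an unadjusted p under 0.05. The interaction count was 756 without HPBCD animal 4, 767 without HPBCD animal 5, 394 without vehicle animal 1, 511 without vehicle animal 2 and 762 without vehicle animal 5, and the vehicle count was 1342 without animal 3. Trim30a turned from 0.99 to -4.27 with no replicate block, where fits that also left out a contralateral library other than that of animal 4 gave -4.59, and Ttr to -0.71 without the block and the peri-infarct library of animal 3. Apart from those, no gene named here changed direction where it was called, and the cause was not tested.

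Depth limits the reading of genes with few contralateral counts: 98 called genes had no contralateral library above 3 counts, and their fitted fold changes depend on the prior count. With 5 animals per treatment, the count for the difference between treatments moved with single animals. Lists were described and not tested, and their members were chosen with earlier results known.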

Other observations

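The spread of the change between animals was described over 11917 genes of at least 5 CPM. The median SD of the 5 log2 ratios (0.5 CPM added) was 0.229, and the 90th percentile was 0.492. For scale, the median absolute log2 fold change over all genes tested was 0.415. Among the genes with the widest spread were Ttr, at -0.02 in animal 3 and 3.71 to 5.24 in the others, and a pair with their rise in animal 2, Fibcd1 at 4.25 and the calcium-binding protein gene Cabp7 at 3.08, against -0.35 to -0.11 and -0.99 to -0.38 in the other 4. Cdr1 was at -5.02 in animal 4 and -2.09 to -0.64 in the others, and the contralateral library of animal 4, which stood apart above, held 127 CPM of it, against at most 14.6 CPM in the other 19 libraries.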
